A study of Homo sapiens with 6 samples.

Results

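The genes described here are those that carry a canonical Wnt signal from β-catenin into the nucleus and those that switch it off again. They were chosen by name: CTNNB1, which encodes β-catenin, the 4 TCF/LEF transcription factor genes TCF7, LEF1, TCF7L1 and TCF7L2, and the 5 feedback inhibitor genes AXIN2, NKD1, NKD2, RNF43 and ZNRF3. All 10 were among the 46427 genes of the count table, and 9 of them were among the 17419 genes that passed the filter on low counts. NKD2 had 0 counts in all 6 libraries and was not tested.

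RNA was sequenced from Hs578T cells, a human triple-negative breast cancer line of mesenchymal character, in 2 groups of 3 libraries. The shCTRL cells carried a control shRNA and the shCCN3 cells carried 1 shRNA against CCN3 (shRNA #2), a secreted matricellular protein also called NOV. In both groups the shRNA was delivered with a pSUPER retroviral vector, clones were selected with puromycin, and they were grown in DMEM with fetal bovine serum. The study examined β-catenin protein and a TCF reporter in such cells, and the comparison here asks what the mRNAs of this pathway did in the knockdown cells. A single shRNA was sequenced, the labels do not say whether the 3 libraries of a group came from separate cultures, and p-values therefore measure only the spread between these samples.

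Without a Wnt signal, β-catenin is held at a low level by a destruction complex of APC, AXIN, GSK3 and CK1 proteins, which phosphorylates it for ubiquitination by a β-TrCP ligase. When Wnt binds Frizzled and LRP5/6, this complex is inhibited, β-catenin accumulates and enters the nucleus, and it binds TCF/LEF proteins, which otherwise sit on Wnt target genes with Groucho/TLE corepressors. Since control acts mainly on protein stability, the mRNA of CTNNB1 does not report how much β-catenin protein a cell holds. AXIN2, NKD1, RNF43 and ZNRF3 are induced by the pathway in many tissues and then dampen it, so they are widely used as readouts of Wnt/β-catenin activity.

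Upstream sequences of genes that differed between the groups are shown for TCF7 and RNF43, which are Wnt targets themselves in other tissues, and for TCF7L1, so that the letters TCF proteins recognise can be looked for in them. They are RefSeq sequences on GRCh38.p14, printed 5′ to 3′ on the gene's strand. Each is the part of the 250 bases before an annotated start that lies outside every GENCODE exon, and capitals mark a match to a TCF recognition string on either strand. The usual strings are CTTTGAT and its variant CTTTGAA. A further variant searched as well is CTTTGTT, and none of these overlaps another in the matches shown.
TCF7, before the upstream listed start, chr5:134115388-134115562, + strand: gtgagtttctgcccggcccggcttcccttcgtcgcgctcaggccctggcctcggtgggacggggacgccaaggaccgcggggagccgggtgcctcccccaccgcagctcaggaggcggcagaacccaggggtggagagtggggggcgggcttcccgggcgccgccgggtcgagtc
TCF7, before the downstream listed start, chr5:134123368-134123617, + strand: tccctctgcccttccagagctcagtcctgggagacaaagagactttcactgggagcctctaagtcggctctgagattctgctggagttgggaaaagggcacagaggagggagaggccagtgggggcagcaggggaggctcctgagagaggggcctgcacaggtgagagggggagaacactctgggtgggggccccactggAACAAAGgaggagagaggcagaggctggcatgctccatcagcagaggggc
TCF7L1, chr2:85133142-85133391, + strand: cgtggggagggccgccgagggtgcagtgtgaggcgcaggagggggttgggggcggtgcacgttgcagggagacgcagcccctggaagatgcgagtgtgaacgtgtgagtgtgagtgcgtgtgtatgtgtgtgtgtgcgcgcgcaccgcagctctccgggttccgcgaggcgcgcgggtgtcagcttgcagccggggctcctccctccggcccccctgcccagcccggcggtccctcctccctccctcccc
RNF43, first start, chr17:58417596-58417784, - strand: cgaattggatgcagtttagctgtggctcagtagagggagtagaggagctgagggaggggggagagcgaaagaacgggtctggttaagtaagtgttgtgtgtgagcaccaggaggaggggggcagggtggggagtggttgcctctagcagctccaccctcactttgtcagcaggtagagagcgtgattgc

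Both TCF7 stretches lie within the annotated span of the gene, before internal starts. The stretch before the upstream one of these starts was 76.0% G or C with 19 CpG dinucleotides in 175 bases, and that before TCF7L1 was 72.0% G or C with 24 CpG in 250 bases. The stretch before the first RNF43 start held 4 CpG in 189 bases, that before an internal RNF43 start, not printed, held 0 in 250, and that before the downstream TCF7 start held 1 in 250. The capitals before the downstream TCF7 start are the reverse complement of CTTTGTT, 44 bases upstream of it. No window of a listed gene, 11 in all for 7 of the 10 genes, held either of the usual strings, which occurred in 5.94% of 35116 promoter windows of the same length. CTTTGTT occurred in 4.50% of all windows and, among the listed genes, also before an internal start of TCF7L2. AXIN2, NKD1 and ZNRF3 had no entry in the promoter table. LEF1 is not shown since its whole window lies in annotated exons.

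The libraries held 56159110 to 68393177 counts, so 3 counts corresponded to 0.0435 to 0.0540 CPM, the read count scaled by TMM to a common library size. CCN3 was measured at 103, 102 and 98.1 CPM in the shCTRL libraries and at 47.4, 47.2 and 46.5 CPM in the shCCN3 libraries, a log2 fold change of -1.10 ± 0.055 (SE; adjusted p = 1.34e-06, edgeR's quasi-likelihood test). All knockdown libraries lay below all control libraries. Of 8 mesenchymal markers, including VIM, FN1 and ZEB1, all were expressed, with summed levels of 14880 to 15076 CPM in shCTRL and 13959 to 14202 CPM in shCCN3. The sum hides moves of single markers. At an adjusted p below 0.05, 1 of the 8 was higher and 2 were lower, beside 16.2% and 17.3% of all tested genes. Of 8 epithelial or luminal markers, 6, including EPCAM, CDH1 and ESR1, stayed under 1 CPM in every library. The exceptions were PGR, with means of 2.86 CPM in shCTRL and 3.80 CPM in shCCN3, and GATA3, with means of 1.16 and 0.729 CPM. The list summed to 3.99 to 4.70 CPM in shCTRL and 4.16 to 5.66 CPM in shCCN3. Of 7 markers of other cell types, 6 stayed under 1 CPM in every library, with the T cell marker CD3E at 0, and the list summed to 3.71 to 5.35 CPM in shCTRL and 3.85 to 4.21 CPM in shCCN3. The shCCN3 replicate 2 library stood apart from the rest. Compared with the other libraries of its group on the log2 scale, its longest genes (the top quartile by length) had a median difference of -0.155 and its shortest ones 0.183, while the same medians lay between -0.112 and 0.109 in the other libraries. The 4 calls below were also made without it, and each gene's log2 fold change without it is given.

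Across the pathway's core, 4 of the 9 tested genes differed between the groups. TCF7 and RNF43 were lower in shCCN3 cells, and TCF7L1 and LEF1 were higher. CTNNB1, TCF7L2, AXIN2, NKD1 and ZNRF3 did not pass the test. The 44.4% of members called stands beside 33.4% of all tested genes at the same threshold, an adjusted p below 0.05, with 16.2% of all genes higher and 17.3% lower. The 2 groups of libraries did not overlap for 6 members (the 4 called genes, TCF7L2 and ZNRF3), beside 46.3% of all tested genes.

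**Figure D1:**
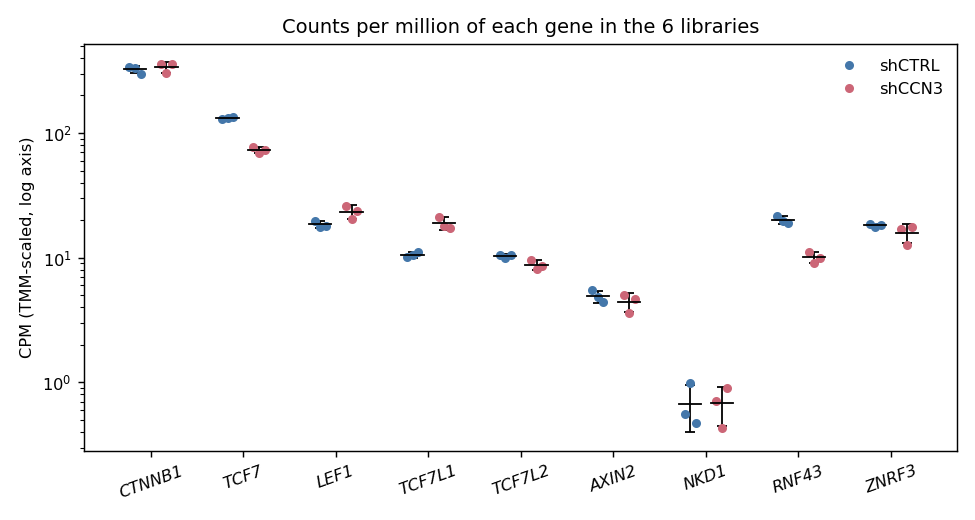
CPM (TMM-scaled, log axis) of the 9 detected genes in each library. Points are the 3 shCTRL (blue) and 3 shCCN3 (red) libraries, horizontal lines are group means and bars are 1 SD. TCF7 and RNF43 are lower and TCF7L1 is higher in all 3 shCCN3 libraries, while the CTNNB1 points of the groups overlap.

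β-catenin mRNA did not differ detectably. CTNNB1 (Gene ID 1499, chromosome 3, 41199505 to 41240443 on GRCh38), also a structural part of cell junctions, was measured at 341, 333 and 299 CPM in shCTRL and at 355, 300.5 and 355 CPM in shCCN3. The groups overlapped, with shCTRL replicate 3 and shCCN3 replicate 2 both low. The means were 324 ± 22.2 and 337 ± 31.2 CPM (SD, n = 3), and the log2 fold change of 0.05 ± 0.082 (SE) had an adjusted p of 0.663. Without shCCN3 replicate 2 the log2 fold change was 0.13 (adjusted p = 0.121). With all libraries the 95% interval ran from 0.913-fold to 1.18-fold. In bulk RNA, less mRNA per cell and fewer cells that carry it cannot be told apart.

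TCF7, the gene of TCF-1, was the most abundant of the TCF/LEF genes and fell. Located on chromosome 5 (134108218 to 134148210, Gene ID 6932), it was measured at 129, 132.5 and 133.5 CPM in shCTRL and at 76.6, 68.6 and 73.0 CPM in shCCN3. Every shCCN3 library lay far below every shCTRL library. The mean fell from 132 ± 2.37 to 72.7 ± 4.02 CPM (SD, n = 3), to 0.553-fold, a log2 fold change of -0.86 ± 0.061 (SE; adjusted p = 1.01e-05), and -0.81 without shCCN3 replicate 2. VDAC1, a mitochondrial channel gene whose span overlaps that of TCF7, was at 368 CPM in shCTRL and 398 CPM in shCCN3 (adjusted p = 0.128). The counts per gene do not separate the full-length TCF-1 from shorter forms that start internally and lack the β-catenin-binding part.

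TCF7L1, the gene of TCF-3, a TCF that acts mainly as a repressor of Wnt targets in stem cells, rose. It lies on chromosome 2 (85133392 to 85310387, Gene ID 83439). Its values were 10.1, 10.4 and 11.2 CPM in shCTRL and 21.4, 18.0 and 17.5 CPM in shCCN3. All 3 knockdown libraries lay above all control libraries. The mean rose from 10.6 ± 0.566 to 18.9 ± 2.12 CPM, 1.79-fold, a log2 fold change of 0.84 ± 0.098 (SE; adjusted p = 0.000185), and 0.88 without shCCN3 replicate 2. Its chromosomal neighbours were higher as well. The 24 tested genes nearest to TCF7L1 had a median log2 fold change of 0.54, 13 of them were called higher and 0 lower, while the tested genes of chromosome 2 as a whole had a median of 0.012. The log2 fold change of TCF7L1 lay 0.30 above its neighbours' median. DNA was not measured, and the part of the neighbourhood in the rise of TCF7L1 was not tested.

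LEF1, a TCF/LEF gene that is itself a Wnt target in several tissues, rose by less. It was found on chromosome 4 (108047548 to 108168932, Gene ID 51176). LEF1 was measured at 19.8, 17.7 and 18.1 CPM in shCTRL and at 26.1, 20.3 and 23.8 CPM in shCCN3. The groups did not overlap, although the lowest knockdown value was close to the highest control value. The mean rose from 18.5 ± 1.13 to 23.4 ± 2.88 CPM, 1.26-fold, a log2 fold change of 0.34 ± 0.0999 (SE; adjusted p = 0.0276). This call did not hold without shCTRL replicate 2 (adjusted p = 0.113), shCTRL replicate 3 (0.0842), shCCN3 replicate 1 (0.115) or shCCN3 replicate 3 (0.0704). Without shCCN3 replicate 2 the log2 fold change was 0.43 (adjusted p = 0.00189). The antisense gene LEF1-AS1 was measured at 0.376 CPM in shCTRL and 0.425 CPM in shCCN3.

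TCF7L2, the gene of TCF-4 and the main TCF of intestinal epithelium, was slightly lower without passing the test. It spans 112950247 to 113167678 on chromosome 10 (Gene ID 6934). It was measured at 10.6, 9.98 and 10.5 CPM in shCTRL and at 9.59, 8.13 and 8.57 CPM in shCCN3. The groups did not overlap, but the log2 fold change of -0.24 ± 0.092 (SE) had an adjusted p of 0.0756, and its 95% interval ran from -0.45 to -0.03. Without shCCN3 replicate 2 the log2 fold change of TCF7L2 was -0.19 (adjusted p = 0.142). No alternative setting brought TCF7L2 past the threshold.

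**Figure D2:**
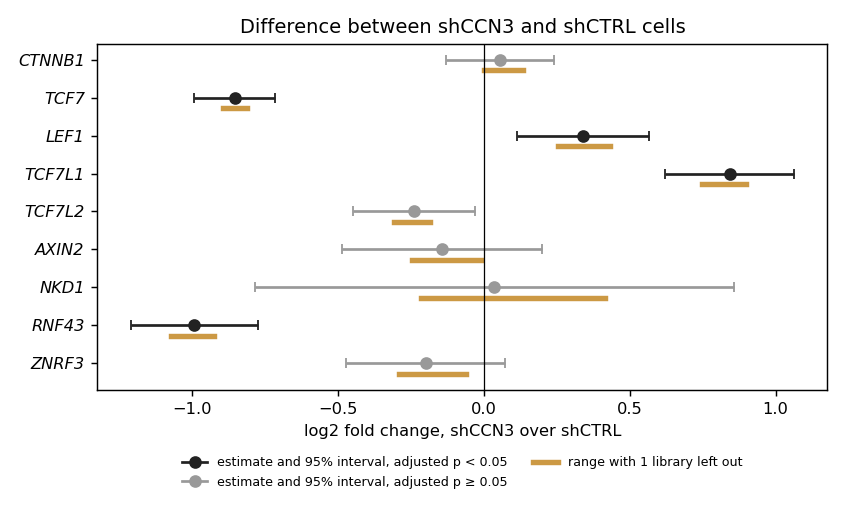
Log2 fold change of shCCN3 over shCTRL for the 9 tested genes, with 95% intervals. Black marks an adjusted p below 0.05, grey the rest, and the orange line below each gene is the range of its log2 fold change when 1 library is left out. The ranges of TCF7, RNF43 and TCF7L1 stay far from 0. That of NKD1 spans it, and that of CTNNB1, from -0.00039 to 0.13, just crosses it.

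Divided by gene length, the 4 TCF/LEF mRNAs shifted in their proportions. Levels per length are given as RPKM, that is CPM per kilobase of exon, with the union of GENCODE exons as the length. TCF7 stood at 13.1 ± 0.235 RPKM in shCTRL and 7.23 ± 0.399 RPKM in shCCN3 (SD, n = 3). LEF1 stood at 3.45 and 4.36 RPKM, TCF7L1 at 2.39 and 4.29 RPKM, and TCF7L2 at 1.54 and 1.30 RPKM. Their sum was 20.5 ± 0.232 RPKM in shCTRL and 17.2 ± 1.44 RPKM in shCCN3.

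Within this sum, TCF7 held 63.9% ± 0.952 in shCTRL and 42.1% ± 1.30 in shCCN3. The share of TCF7L1 was 11.7% ± 0.505 in shCTRL and 25.0% ± 1.36 in shCCN3, and that of LEF1 16.9% ± 1.09 and 25.3% ± 1.28. TCF7L2 held 7.51% and 7.57%. The shares of TCF7, TCF7L1 and LEF1 did not overlap between the groups. Shares of the same sum depend on each other, so the fall of TCF7 by itself raises the shares of the other genes. With the longest transcript as the length, TCF7 held 68.4% in shCTRL and 47.3% in shCCN3, so the shares depend on the length chosen and the direction of the difference did not. Within single libraries, TCF7L1 per length was 0.178, 0.179 and 0.191 times TCF7 in shCTRL and 0.636, 0.598 and 0.545 times TCF7 in shCCN3. LEF1 was 0.264 ± 0.0207 times TCF7 in shCTRL and 0.602 ± 0.0417 times in shCCN3. In no shCCN3 library did TCF7 fall below TCF7L1 or LEF1.

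**Figure D3:**
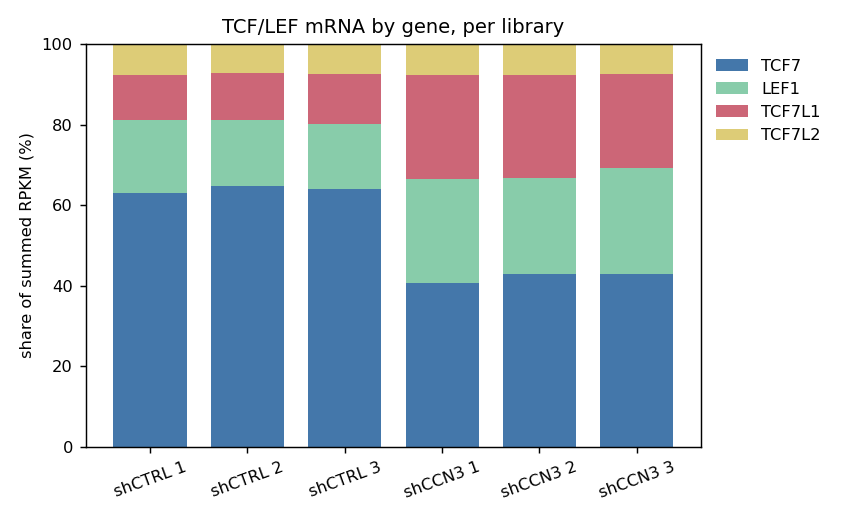
Share of each TCF/LEF gene in the summed RPKM of the 4 genes (%), as stacked bars for the 3 shCTRL and the 3 shCCN3 libraries. TCF7 falls from 63.9% to 42.1% on average, TCF7L1 and LEF1 take larger shares, and TCF7L2 stays between 7.30% and 7.70%.

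RNF43, a membrane ubiquitin ligase that removes Frizzled receptors from the cell surface, fell. It lies on chromosome 17 (58352500 to 58417534, Gene ID 54894). The shCTRL libraries held 21.5, 19.8 and 18.9 CPM and the shCCN3 libraries 11.2, 9.12 and 9.94 CPM. Every knockdown value lay below every control value. The mean fell from 20.1 ± 1.32 to 10.1 ± 1.02 CPM, to 0.502-fold, a log2 fold change of -0.99 ± 0.096 (SE; adjusted p = 6.12e-05), and -0.93 without shCCN3 replicate 2. TSPOAP1-AS1, an antisense gene that overlaps the 3′ end of RNF43, moved the other way (log2 fold change 1.81, adjusted p = 0.00537) but held only 10 to 53 counts per library, against 507 to 1479 for RNF43.

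ZNRF3, the paralog of RNF43 with the same action on Frizzled, did not pass the test. It lies on chromosome 22 (28883572 to 29057488, Gene ID 84133). It was measured at 18.6, 17.8 and 18.2 CPM in shCTRL and at 17.0, 12.7 and 17.8 CPM in shCCN3. The groups barely failed to overlap, and shCCN3 replicate 2 held the lowest value. The log2 fold change was -0.20 ± 0.120 (SE; adjusted p = 0.242), and -0.06 without shCCN3 replicate 2. Within single libraries RNF43 per length was 1.07, 1.04 and 0.966 times ZNRF3 in shCTRL and 0.608, 0.670 and 0.520 times in shCCN3. The antisense gene ZNRF3-AS1 was at 0.215 CPM in shCTRL and 0.154 CPM in shCCN3.

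AXIN2, a scaffold of the destruction complex and the target most often used to read out Wnt/β-catenin activity, was low in both groups. It lies on chromosome 17 (65528563 to 65561648, Gene ID 8313). Its values were 5.47, 4.86 and 4.38 CPM in shCTRL and 5.03, 3.58 and 4.67 CPM in shCCN3. The groups overlapped. The log2 fold change was -0.14 ± 0.152 (SE; adjusted p = 0.514), with a 95% interval from -0.49 to 0.20, and -0.01 without shCCN3 replicate 2. A fall to 0.71-fold or a rise to 1.15-fold was thus within the interval.

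NKD1, an inhibitor that binds Dishevelled, was near the limit of what could be compared. It lies on chromosome 16 (50548396 to 50649249, Gene ID 85407). It held 38, 62 and 32 counts in shCTRL and 49, 24 and 58 counts in shCCN3, or 0.432 to 0.987 CPM. The groups overlapped fully. The log2 fold change was 0.04 ± 0.364 (SE; adjusted p = 0.953), and its 95% interval, from 0.580-fold to 1.81-fold, includes a rise as large as that of TCF7L1. Without shCCN3 replicate 2 the log2 fold change of NKD1 was 0.27 (adjusted p = 0.566). NKD2, its paralog on chromosome 5 (1008802 to 1038943, Gene ID 85409), had no counts, which allows at most 0.0435 to 0.0540 CPM per library by counting error alone.

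By level per length, the order in shCTRL was CTNNB1 at 27.2 RPKM, TCF7 at 13.1, LEF1 at 3.45, RNF43 at 2.68, ZNRF3 at 2.61, TCF7L1 at 2.39, TCF7L2 at 1.54, AXIN2 at 0.938 and NKD1 at 0.0386 RPKM. RNF43 and ZNRF3 overlapped in this order, as did RNF43 and TCF7L1. In shCCN3, TCF7L1 at 4.29 RPKM came beside LEF1 at 4.36 RPKM, and RNF43 at 1.34 RPKM came down beside TCF7L2 at 1.30 RPKM, each pair overlapping between libraries. CTNNB1 and TCF7 stayed the highest in both groups.

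The 24 nearest tested genes of the other members had medians between -0.04 and 0.09, near the median of all tested genes of 0.0076. For TCF7 the neighbours' median was 0.06, and 0 of the 24 were called higher and 2 lower. RNF43 had neighbours with a median of 0.09, of which 3 were higher and 3 lower. With the 10 nearest genes in place of 24, the median for AXIN2 was -0.30 in place of -0.01, that for LEF1 0.10 in place of -0.03, and that for TCF7L2 -0.07 in place of 0.03.

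**Figure D4:**
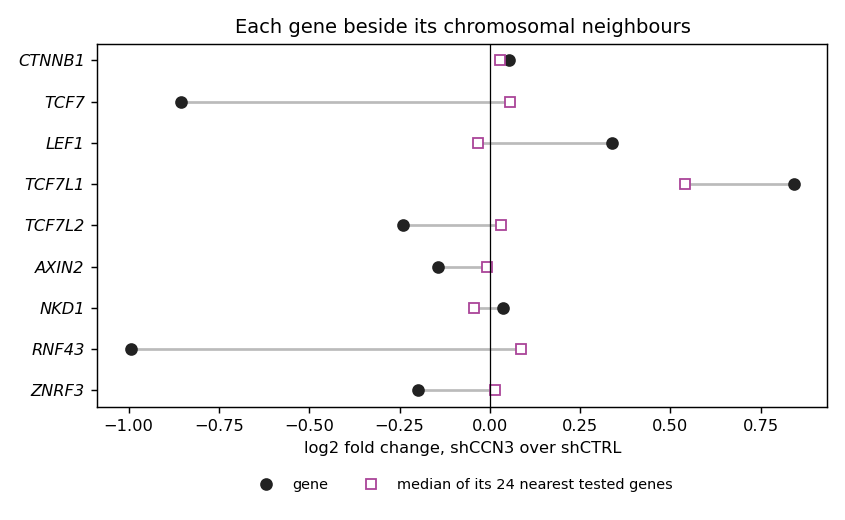
Log2 fold change of shCCN3 over shCTRL for each tested gene (filled circles) and the median of its 24 nearest tested genes on the chromosome (open squares). The neighbours of TCF7L1 have a median of 0.54, and those of the other 8 genes lie between -0.04 and 0.09.

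Around these genes, the other parts of the pathway were examined by list. The counts of every list stand beside 33.4% of all tested genes called, 16.2% higher and 17.3% lower. Of 12 genes of the destruction complex and its regulators (among them TNKS, TNKS2 and USP34), all tested, 2 were higher, 1 was lower and 9 did not pass. The median log2 fold change was 0.10. APC, AXIN1, GSK3A, GSK3B and CSNK1A1 were among the 9. AMER1, a membrane-associated APC partner, rose from 5.33 to 7.15 CPM (log2 fold change 0.42, adjusted p = 0.0393), and BTRC, which encodes the β-TrCP ligase subunit, rose from 21.6 to 25.3 CPM (0.23, adjusted p = 0.0495). TNKS, a tankyrase that marks AXIN for degradation, fell from 45.6 to 34.1 CPM (-0.42, adjusted p = 0.0126), and 12 of its 24 nearest genes were lower, with a median of -0.30. The count for this list changed most with the settings, from 0 to 6 when 1 library was left out.

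Among 18 nuclear partners of β-catenin and TCF/LEF, 1 was higher and 4 were lower, with a median of 0.04. The corepressor gene TLE4 rose from 42.4 to 79.7 CPM (log2 fold change 0.91, adjusted p = 1.89e-05) while its paralog TLE1 fell from 80.7 to 46.0 CPM (-0.81, adjusted p = 2.90e-05). CTNNBIP1, the gene of ICAT, which blocks the binding of β-catenin to TCF, fell from 61.8 to 26.9 CPM (-1.20, adjusted p = 1.42e-06). The 24 nearest genes of CTNNBIP1 had a median of -0.37 and 15 of them were lower. Coactivator genes BCL9, BCL9L, PYGO1, PYGO2, CREBBP and EP300 did not pass.

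At the receptors, 3 of 9 tested Frizzled and LRP5/6 genes were higher and 4 lower, with a median of 0.23. FZD7 rose from 57.7 to 137 CPM (log2 fold change 1.25, adjusted p = 2.57e-06) and FZD4 from 14.8 to 22.5 CPM (0.60, adjusted p = 0.000479). FZD1 fell from 40.4 to 17.0 CPM (-1.24, adjusted p = 3.41e-06) and FZD8 from 69.4 to 36.0 CPM (-0.95, adjusted p = 8.96e-06). The neighbours of FZD1 had a median of -0.41, with 16 of 24 lower, and the 821 tested genes of its chromosome 7 had a median of -0.43, whereas those of FZD7, FZD4 and FZD8 had medians of 0.03, 0.05 and 0.02. Of the 7 R-spondin and LGR genes, which restrain RNF43 and ZNRF3, only 2 passed the filter on low counts. RSPO2 fell from 1.83 to 0.595 CPM (-1.62, adjusted p = 0.00083), and LGR4 was at 21.9 and 29.2 CPM (0.42, adjusted p = 0.0754). The neighbours of RSPO2 moved the other way, with a median of 0.29, 13 of 24 higher and 2 lower.

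Of 11 tested Dishevelled genes and partners, 2 were higher and 2 lower, with a median of -0.02. DACT1, a Dishevelled antagonist, rose from 1.20 to 5.70 CPM (log2 fold change 2.25, adjusted p = 1.24e-05) and the formin gene DAAM1, which acts in the planar polarity branch, from 4.63 to 7.89 CPM (0.77, adjusted p = 0.00324). The neighbours of DACT1 and of DAAM1, in overlapping stretches of chromosome 14, had a median of 0.15, with 7 of 24 higher and 1 lower. DACT3, of the same family as DACT1, fell from 2.87 to 1.40 CPM (-1.03, adjusted p = 0.00181), and DVL1 from 229 to 160.4 CPM (-0.51, adjusted p = 0.000165). DVL1 has neighbours with a median of -0.31, of which 12 of 24 were lower. In the cadherin-catenin list 1 of 5 tested genes was called: CDH2, or N-cadherin, which holds β-catenin at the membrane, rose from 89.0 to 162 CPM (0.87, adjusted p = 9.06e-05).

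Other target genes of the pathway moved in both directions. Of 16 tested, 5 were higher and 7 lower, beside 16.2% and 17.3% of all tested genes, with a median of -0.05. TCF4, an E-protein gene that despite its name is not the TCF-4 gene TCF7L2, rose from 1.69 to 4.20 CPM (log2 fold change 1.32, adjusted p = 0.000489), and SNAI2, an EMT transcription factor gene, from 29.99 to 56.6 CPM (0.92, adjusted p = 4.30e-05). The neighbours of SNAI2 had a median of 0.56, with 17 of 24 higher. TNFRSF19, which encodes the receptor TROY, fell from 44.6 to 11.5 CPM (-1.95, adjusted p = 1.22e-07), and SP5, a direct target in many cell types, from 1.02 to 0.229 CPM (-2.16, adjusted p = 0.00241), with 10 to 89 counts per library. Around TNFRSF19 the neighbours had a median of -0.15, with 2 of 24 higher and 7 lower.

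**Figure D5:**
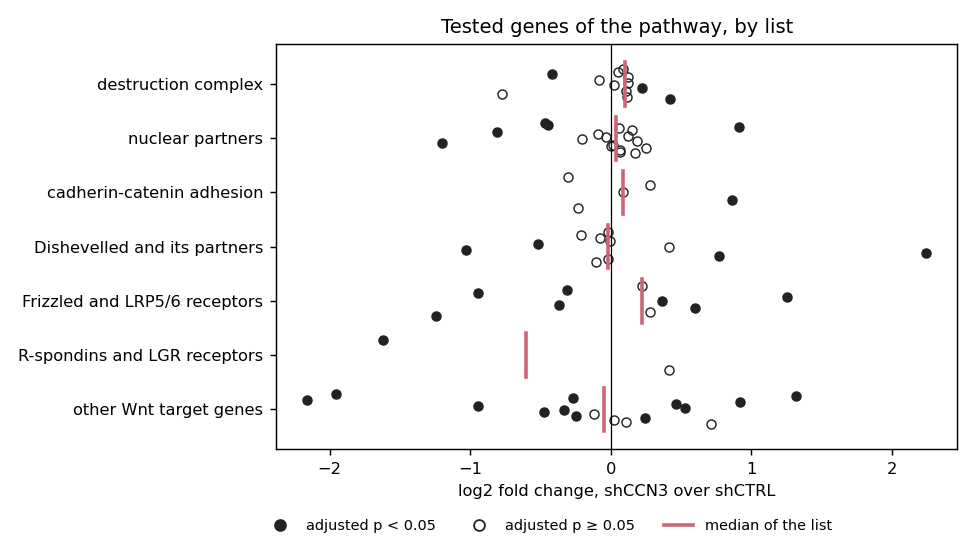
Log2 fold change of shCCN3 over shCTRL for each tested gene of 7 pathway lists. Filled circles have an adjusted p below 0.05, open circles do not, and the red line is the median of the list. Called genes lie on both sides of 0 in every list except the adhesion list and the R-spondin and LGR list. Most genes of the destruction complex list lie close to 0.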

How the data were processed

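The authors prepared libraries with a stranded TruSeq mRNA kit, sequenced them on an Illumina NovaSeq and deposited raw read counts per gene, by NCBI Gene ID, with no normalization. The submitters' processing notes name bcl2fastq 2.20.0, Trimmomatic, HISAT2 2.1.0, StringTie and DESeq2 on GRCh38, without roles. Whether counting used the strand is not given in the sources used here, so reads of a gene and its antisense partner may not be told apart.

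Columns were assigned to groups by their names and the sample labels. edgeR 4.0.16 in R 4.3.3 gave CPM and log2 fold changes with TMM normalization, its filter on low counts by group, and its quasi-likelihood test, and p-values were adjusted after Benjamini and Hochberg over all 17419 genes tested. Adjusted p-values in the report are from this fit, or from the same fit without a library where the text names the library left out, and 3 against 3 libraries allow no exact permutation p below 0.1. Gene lengths came from GENCODE release 29, and positions from RefSeq for 17130 tested genes. Alternatives were upper-quartile or DESeq2 scaling factors, a filter of 10 or more counts per library or none, the DESeq2 1.42.0 Wald test, limma-voom (limma 3.58.1), a replicate block, each library left out, longest transcripts, and 10 or 50 neighbours. The scripts were tested on simulated data.

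The members and lists were chosen with earlier results of these data known. Named are all members, CCN3, overlapping genes and, per list, the genes past an adjusted p of 0.05 with non-overlapping groups and a mean of 1 CPM or more in a group, limited to the 2 that rose most and the 2 that fell most. Genes named as not passing, the within-library ratios, and the neighbours of genes that are not members were chosen after their values were seen. Intervals of counts cover counting error only. The value of 1 marker gene is not reported here.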

Additional observations from a re-analysis of the deposited data

How the results depend on the processing

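TCF7, TCF7L1 and RNF43 kept their direction and stayed past the threshold under all 13 alternatives, with log2 fold changes from -0.89 to -0.81, from 0.75 to 0.90 and from -1.07 to -0.93. The 4 calls became 3 in the fits without shCTRL replicate 2 or 3 or shCCN3 replicate 1 or 3, where LEF1 was lost, so that the number of members called higher ranged from 1 to 2 when 1 library was left out. With 1 library left out, CTNNB1 ranged from -0.00039 to 0.13 and NKD1 from -0.22 to 0.41. The direction of CTNNB1 turned without shCTRL replicate 3 (-0.00039), and that of NKD1 without shCTRL replicate 1 (-0.09), shCTRL replicate 3 (-0.16) and shCCN3 replicate 3 (-0.22), all without a call. Of the lists, the destruction complex had 3 called genes, 1 with no filter on low counts, 1 with the replicate block, and 0 to 6 with 1 library left out. The adhesion list had 1, 2 by DESeq2, and 1 to 2 with 1 library left out. The R-spondin and LGR list had 1, 2 with no filter, 2 by DESeq2, and 1 to 2 with 1 library left out. The receptor list had 7, with a lowest count of 4 without shCTRL replicate 2. The cause of these moves was not tested. Over all genes, 5825 were called, 7229 without shCCN3 replicate 2 and 4181 to 4824 without any other library. Same-numbered libraries did not deviate together (correlations of 0.0891, -0.0256 and -0.0657 over 17419 genes), so the numbers were not taken as pairs, and the fit with the replicate block called 4887 genes and the same number of members, 4. NKD1, at 24 to 62 counts per library, is limited by depth.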

Other observations

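Some pairs of related genes of the pathway changed in opposite directions between the groups. Per length, TLE4 was 0.315 ± 0.0194 times TLE1 in shCTRL and 1.04 ± 0.0464 times in shCCN3 (SD, n = 3). FZD7 was 0.869 ± 0.0529 times FZD8 in shCTRL and 3.99 ± 0.224 times in shCCN3, and DACT1 was 0.518 ± 0.157 times DACT3 in shCTRL and 4.90 ± 1.06 times in shCCN3. These pairs were chosen after their values were seen, and the ratios carry no test. Each joins a gene called higher with one called lower, so a shift of its ratio follows from the choice.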
